A study of Mus musculus with 16 samples.

Results

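The 34 genes described here encode the enzymes and carriers that burn fatty acids in mitochondria, with a few that act beside them on malonyl-CoA, acetyl-CoA, branched-chain amino acids or peroxisomal fatty acids. They were chosen as genes of the pathway, with no threshold on their values but with earlier results of these data known, out of the 36950 genes of a table of unique molecular identifier (UMI) counts per cell. The cells came from the left ventricle of male mice in a model of transverse aortic constriction (TAC), a narrowing of the aorta that loads the heart with pressure. The stages, named in weeks, held 2 mice (0w), 2 mice (2w), 7 mice (5w), 3 mice (8w) and 2 mice (11w). The labels name no strain or age and do not tell whether the 0w mice were operated on, so 0w served only as the first stage. Ventricular slices were digested either with a protease and a collagenase, which favour cardiomyocytes, or with a papain enzyme, which favours the other cells. The stages were compared to find which steps of fatty acid oxidation differed first and by how much, and levels were then set side by side over the authors' cardiomyocyte (CM) subclusters and cell types.

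The adult heart takes most of its energy from fatty acids. A fatty acid is tied to coenzyme A at the outer mitochondrial membrane, passed through the inner membrane on carnitine, and shortened by rounds of beta-oxidation in which an acyl-CoA dehydrogenase, a hydratase, a hydroxyacyl-CoA dehydrogenase and a thiolase act in turn. Unsaturated chains need isomerases and reductases in addition, and the dehydrogenases hand their electrons to the electron transfer flavoprotein. A lower expression of this pathway is a known feature of the failing heart, and nuclear receptors of the PPAR and ERR families are known to drive many of its genes.

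Cardiomyocytes were annotated in 14 of the 16 mice, all but replicates 2 and 3 of 5w, with 54 to 636 cells and 926680 to 27690918 non-mitochondrial UMIs per mouse. Levels are given in CPM, that is UMIs per 1000000 non-mitochondrial UMIs, summed over the cardiomyocytes of a mouse. Replicate 1 of 5w (54 cells) and replicate 1 of 8w (123 cells) shared 1 capture plate, here called plate E, and stood apart from all the others. Their summed level of 8 cardiomyocyte markers was 11521 and 14769 CPM, against 24748 to 91830 in the other 12 mice, and their fibroblast markers came to 5480 and 4543 CPM, against 909 to 2492. Results are therefore given with and without these mice. The share of non-mitochondrial UMIs in 3 pseudogene copies of mitochondrial DNA and in Gm26924 was 24.4% and 23.4% at 0w and 52.5% and 38.7% at 11w, so shares of protein-coding UMIs are given beside the main scale. Globin and other erythroid transcripts made up 88471 CPM in replicate 2 of 11w, 54469 in replicate 3 of 8w and 37903 in replicate 1 of 5w, and 375 to 24347 in the other mice.

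Together the 34 transcripts made up 1.02% and 1.1% of non-mitochondrial cardiomyocyte UMIs in the 0w mice and 1.04% and 1.13% in the 2w mice. At 5w the share was 0.389% in replicate 1 and 0.967%, 0.777%, 0.976% and 0.628% in replicates 4 to 7. It was 0.462%, 0.845% and 0.589% at 8w, and 0.351% and 0.395% at 11w. Every mouse from 5w on therefore lay below all 4 mice of 0w and 2w. Scaled to protein-coding UMIs, the share was 1.51% and 1.60% at 0w, 1.32% and 1.36% at 2w, and 0.876% and 0.720% at 11w. On that scale the 5w mice 4 to 7, at 1.13% to 1.44%, overlapped the 2w mice. The summed cardiomyocyte markers moved with the 11w value, from 47006 and 54816 CPM at 0w to 24748 and 30714 at 11w, but not with that of 5w, where replicates 4 to 7 had 49670 to 71830. On the protein-coding scale the markers were at 69582 and 80147 at 0w and at 61660 and 56056 at 11w. Their part in the result was not tested. A lower sum per mouse does not tell fewer cells that carry a transcript from less of it in each cell.

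**Figure D1:**
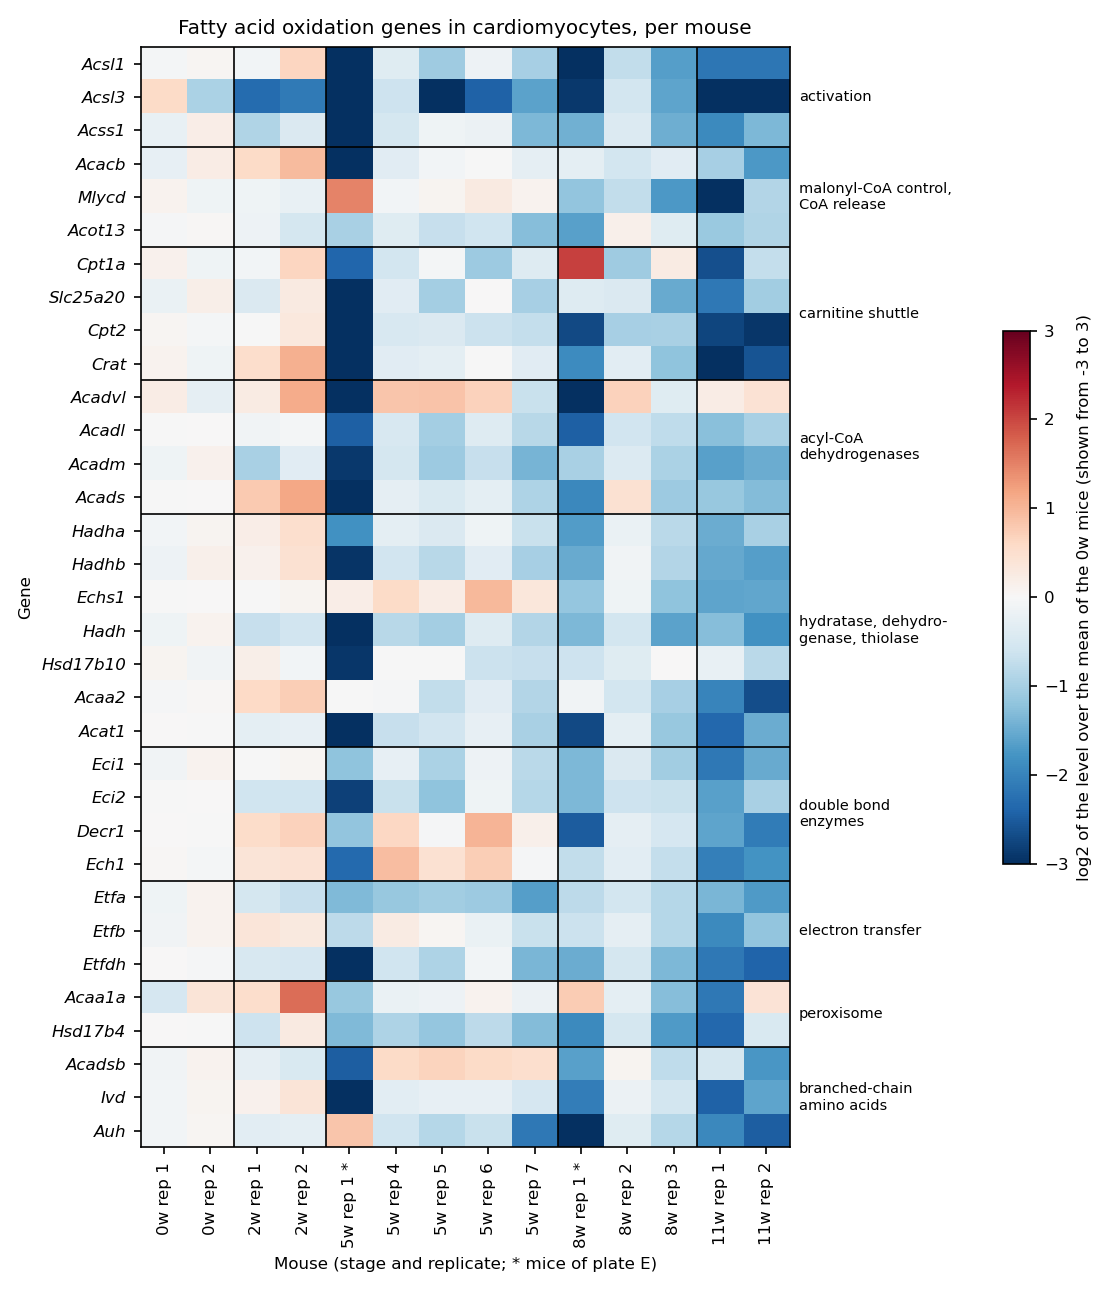
Level of each of the 33 genes that passed the low-count filter (rows, grouped by step) in each mouse (columns), as log2 of its level over the mean of the 0w mice, in CPM. Genes such as Etfa, Etfdh and Acadm are already blue at 2w, while Etfb is above the 0w mean. Genes such as Ech1 and Decr1 are red at 2w and in most 5w mice. The 11w columns are blue for all rows but Acadvl and, in replicate 2, Acaa1a. The columns marked with a star are the mice of plate E.

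The genes that were lower from 2w on included 2 acyl-CoA dehydrogenases, which start a beta-oxidation round, and 2 genes of its electron outlet. With them went 3 genes of other steps. Neither the dehydrogenases nor the electron outlet were lower in all their genes. Acads, Acadvl and Etfb had 2w means of 199%, 167% and 126% of the 0w mean. At 2w both mice lay below both 0w mice, and every later mouse did too, for 7 of the 33 genes tested: Etfa, Etfdh, Acadm, Acadl, Hadh, Acat1 and Eci2. The same held for 2.57% of all genes tested. The same 7 met the rule under scaling by trimmed mean of M-values (TMM), where the share of all genes was 2.16%.

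Etfa, the alpha subunit of the electron transfer flavoprotein (chr9:55454508-55512243, minus strand, mm10), was the clearest of them. It stood at 894 and 1046 CPM at 0w, 668 and 598 at 2w, 387, 442, 473, 452 and 308 in 5w replicates 1, 4, 5, 6 and 7, 564, 667 and 535 at 8w, and 373 and 299 at 11w. All later mice lay below the 0w mice, and the 5w mice lay below the 8w mice as well. Etfdh, which passes the electrons of the flavoprotein on to ubiquinone, stood at 358 and 347 at 0w, 253 and 250 at 2w, 23.7, 232, 184, 332 and 135 at 5w, 126, 247 and 138 at 8w, and 79.2 and 67.1 at 11w. One 5w mouse, replicate 6, came close to the 0w range.

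Acadm, the medium-chain acyl-CoA dehydrogenase (chr3:153922357-153944632, minus strand), stood at 671 and 797 at 0w, 372 and 578 at 2w, 99.3, 509, 348, 458 and 280 at 5w, 374, 553 and 379 at 8w, and 238 and 263 at 11w. The 2w, 5w and 8w mice overlapped each other. Hadh, the hydroxyacyl-CoA dehydrogenase for medium and short chains, stood at 258 and 306 at 0w, 175 and 189 at 2w, 34.5, 157, 140, 217 and 152 at 5w, 110, 193 and 92.8 at 8w, and 117 and 80.3 at 11w. Without the mice of plate E, mean levels of Hadh were 64.6%, 59.1%, 50.7% and 35.0% of the 0w mean at 2w, 5w, 8w and 11w. Most of the distance to 8w was thus present at 2w.

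Acat1, the acetoacetyl-CoA thiolase that also serves ketone bodies, had means of 82.5%, 66.0%, 63.4% and 27.6% of the 0w mean at the same stages in these mice. Acadl, the long-chain acyl-CoA dehydrogenase, was only slightly lower at 2w, with 765 and 795 CPM against 824 and 829 at 0w, and reached 348 and 419 at 11w. Eci2, an enoyl-CoA isomerase, had nearly equal values within the first stages, 136 in both 0w mice and 90.1 and 90.3 in the 2w mice. Later mice of a stage differed more, from 14.3% to 90.9% of the 0w mean at 5w. The range was 39.2% to 65.4% at 8w and 32.4% to 50.7% at 11w. At 2w, 13 of the 33 genes had both mice below both 0w mice, against 20.1% of all genes.

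None of these differences at 2w passed the test. With edgeR's quasi-likelihood test and Benjamini-Hochberg adjustment over 15131 genes, no member and no other gene passed an adjusted p of 0.05 at 2w. At an unadjusted p under 0.05 there were 382 genes and 0 members, and DESeq2 called 12 genes and 0 members. The 5 members with the smallest p were Acsl3, Etfa, Acaa2, Acaa1a and Acadm, all with an adjusted p of 1. Their log2 fold changes were -2.20 ± 1.26 (SE), -0.62 ± 0.36, 0.67 ± 0.43, 1.21 ± 0.84 and -0.63 ± 0.56. The median over the 33 members was 0.03 and that over all genes 0.19. These p-values measure the spread between the sampled mice, and all contrasts with 0w share the same 2 mice of that stage. Apart from plate E, each capture plate held mice of a single stage. A difference between stages therefore cannot be told apart from a difference between plates, here and in all later contrasts.

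Some genes stood higher at 2w, in a share close to that of all genes. For 11 of the 33 genes both 2w mice lay above both 0w mice, against 30.3% of all genes: Acaa2, Crat, Acacb, Acads, Acadvl, Acaa1a, Hadha, Etfb, Ivd, Decr1 and Ech1. The count was 8 under TMM scaling (24.9% of all genes) and 6 on the protein-coding scale (20.7%). Acaa2, the mitochondrial thiolase that ends a round, stood at 530 and 564 at 0w, 823 and 913 at 2w, 542, 536, 330, 435 and 296 at 5w, 507, 375 and 273 at 8w, and 139 and 86.9 at 11w. It went from 159% of the 0w mean at 2w to 20.7% at 11w. Crat, carnitine acetyltransferase, which buffers acetyl-CoA, stood at 131 and 111 at 0w, 173 and 253 at 2w, 2.16, 94.6, 98.5, 120 and 96.0 at 5w, 32.8, 97.6 and 51.9 at 8w, and 12.9 and 20.003 at 11w. The 11w values rest on 33 and 76 UMIs. The cardiomyocyte markers were also higher at 2w, with 69664 and 91830 CPM. In the 2w mice erythroid transcripts summed to 24347 and 18149 CPM and atrial markers to 3830 and 178, while the 0w mice had 10805 and 4250 erythroid and 201 and 47.1 atrial. Their part in these values was not tested.

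**Figure D2:**
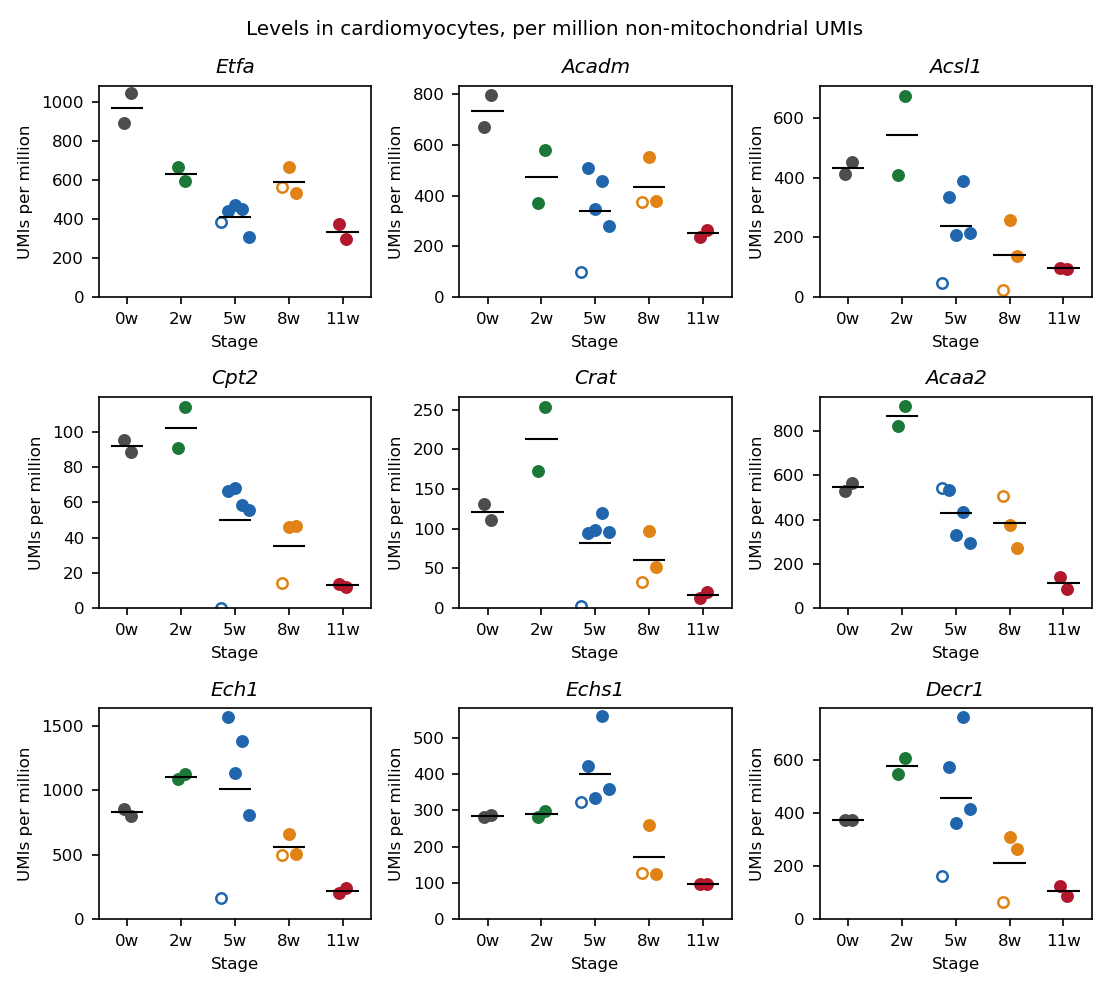
Levels of 9 genes in cardiomyocytes by stage, in CPM; each point is a mouse, the bar is the mean of the stage and open points are the mice of plate E. Etfa and Acadm are lower from 2w on, Ech1, Decr1 and Echs1 are as high or higher at 5w than at 0w in the mice off plate E except for single mice near the 0w level, and all 9 genes have their lowest mean at 11w when the plate E mice are left aside.

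Without plate E, Echs1, Ech1 and Decr1 had means of 147%, 147% and 142% of the 0w mean at 5w. The other double bond enzymes, Eci1 and Eci2, were at 70.9% and 63.0%. Echs1, the short-chain enoyl-CoA hydratase, was the 1 member of 33 with all 5w mice above both 0w mice, a smaller share than the 5.06% of all genes. Under TMM scaling 0 members met this rule (5.29% of all genes). Echs1 stood at 281 and 287 at 0w, 281 and 299 at 2w, 324, 422, 333, 560 and 359 at 5w, 128, 259 and 124 at 8w, and 95.6 and 97.1 at 11w. Ech1, a dienoyl-CoA isomerase of mitochondria and peroxisomes, stood at 855 and 802 at 0w, 1086 and 1123 at 2w, 165, 1566, 1132, 1383 and 803 at 5w, 497, 661 and 507 at 8w, and 201 and 240 at 11w. Decr1, the dienoyl-CoA reductase, stood at 373 and 372 at 0w, 546 and 605 at 2w, 163, 571, 363, 760 and 416 at 5w, 65.8, 308 and 263 at 8w, and 124 and 87.1 at 11w. For both, replicate 1 of 5w was the only 5w mouse far below the 0w level. Acadsb, a dehydrogenase of isoleucine breakdown, was at 211 to 240 in 5w replicates 4 to 7 against 139 and 161 at 0w, and at 27.0 in replicate 1.

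The promoters of an early and a late gene are shown to set the regulatory sequence of both patterns side by side. RefSeq promoters (assembly GRCm38.p6, 250 bases before to 50 after a gene's start) were matched for 27 of the 34 members, which had 28 promoters, and not for Acat1, Acaa2, Cpt1b, Hsd17b4, Acot13, Crat and Decr1. The stretches printed lie before the start, chr3:153944644-153944893 for Acadm and chr7:140116477-140116671 for Echs1, both on the minus strand and written 5′ to 3′ along the gene. Capitals mark AGGTCA, the hexamer that PPAR, RXR and ERR receptors recognise, or its reverse complement.
Acadm: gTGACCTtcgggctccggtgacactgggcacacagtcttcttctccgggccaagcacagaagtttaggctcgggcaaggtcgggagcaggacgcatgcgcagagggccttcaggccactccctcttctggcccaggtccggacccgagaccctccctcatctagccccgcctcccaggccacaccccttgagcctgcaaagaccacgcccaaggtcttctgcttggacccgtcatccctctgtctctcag
Echs1: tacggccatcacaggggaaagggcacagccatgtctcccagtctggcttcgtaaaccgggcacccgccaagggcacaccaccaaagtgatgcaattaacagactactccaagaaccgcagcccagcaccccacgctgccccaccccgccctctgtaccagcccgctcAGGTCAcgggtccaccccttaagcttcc
Searched on both strands, AGGTCA was in 5 of the 28 member promoters (17.857%), those of Acadm, Acacb, Acadvl, Cpt1a and Echs1, and in 16.255% of 32851 promoters of the same length. A direct repeat of the hexamer with 1 base between its copies was in 0 member promoters and 0.04% of all, and TCAAGGTCA, which contains the hexamer, was in 0 and 0.423%. The early gene Acadm and the late gene Echs1 thus both carried the hexamer, and most members of either pattern did not have these letters in this window.

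At 5w the mice split the pathway. All 5 mice with cardiomyocytes lay below both 0w mice for 16 of the 33 genes, against 11.9% of all genes, and 6 genes were lower from 5w on but not yet at 2w: Acsl1, Cpt2, Eci1, Hadha, Hsd17b4 and Ivd. That order was met by 1.45% of all genes. With all mice, edgeR called 0 members and 1 gene at 5w, a lower one (0.00661% of genes). The smallest p-values belonged to Etfa (log2 fold change -1.23 ± 0.29, adjusted p = 0.371), Acadm (-1.11 ± 0.45, 0.714), Acsl3 (-1.92 ± 0.96, 0.806), Hadh (-1.0 ± 0.50, 0.806) and Acot13 (-0.75 ± 0.39, 0.825). The unadjusted p was under 0.05 for 2 members and 947 genes. DESeq2 called 82 genes and 0 members. Without the mice of plate E, Etfa fell at 5w (-1.21 ± 0.22, adjusted p = 0.0245 in edgeR, lower in 4 of 4 mice). It was the only member among 59 genes that fell (0.383%) and 14 that rose. The call was lost when any 1 of the 6 mice of 0w and of the other 5w replicates was left out as well. Under TMM scaling Etfa also fell in these mice (-1.15 ± 0.22, adjusted p = 0.0389).

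At the activation step, Acsl1, the main long-chain acyl-CoA synthetase of the heart (chr8:46471037-46536051, plus strand), stood at 412 and 452 at 0w, 409 and 674 at 2w, 48.6, 334, 207, 387 and 216 at 5w, 23.9, 257 and 137 at 8w, and 96.0 and 95.5 at 11w. All mice from 5w on lay below all mice of 0w and 2w. Acss1, which activates acetate in mitochondria, was at 64.0% of the 0w mean at 2w and at 33.1% at 11w, with 72.1% and 55.7% in between, without plate E. Acsl3, a synthetase of the endoplasmic reticulum and lipid droplets, was scarce, with 20.4 and 7.07 CPM at 0w and 0.781 and 0.790 at 11w. Those 11w levels rest on 2 and 3 UMIs, so no fold change is given for it there.

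Among the genes that set malonyl-CoA, the inhibitor of carnitine palmitoyltransferase 1, Acacb makes it and Mlycd removes it. Acacb went from 27.7 and 38.1 at 0w to 49.1 and 63.7 at 2w and 16.4 and 10.0 at 11w. Mlycd was at 89.9 and 76.8 at 0w, at 78.9 to 100 in 5w replicates 4 to 7, and at 233 in replicate 1. Both 2w mice were just below the 0w mice (76.4 and 71.4), but only from 8w on did every mouse stay below them (36.4, 50.1 and 25.3, then 6.64 and 45.5). Acot13, a thioesterase that releases coenzyme A, was at 1120 and 1193 at 0w, and at 536 and 621 at 11w. The median over these 3 genes was 79.1% to 99.3% of the 0w mean in 5w replicates 4 to 7, and 46.4% and 53.7% in the 11w mice, the highest step median in both 11w mice when the peroxisomal genes are left aside.

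By the median of its genes, the carnitine shuttle lay below both 0w mice in every mouse from 5w on. The same held for activation, electron transfer, the branched-chain genes and the hydratase, hydroxyacyl-CoA dehydrogenase and thiolase genes. The shuttle's median over 4 genes was 96.4% and 141% of the 0w mean at 2w and 68.4% to 81.7% in 5w replicates 4 to 7. It was 46.8% and 61.9% in 8w replicates 2 and 3, and 15.5% and 32.5% at 11w. In replicate 1 of 11w it was the lowest of the 9 steps, whereas in replicate 2 activation (22.1%), branched-chain genes (30.0%), electron transfer (30.8%) and double bond enzymes (32.0%) were lower. Cpt2, the inner membrane palmitoyltransferase (chr4:107903981-107923610, minus strand), stood at 95.6 and 88.4 at 0w, 90.9 and 114 at 2w, 0, 66.5, 68.4, 58.5 and 55.6 at 5w, 14.1, 45.8 and 46.6 at 8w, and 13.7 and 12.1 at 11w (35 and 46 UMIs). The stages off plate E were in order with no overlap after 2w. Slc25a20, the carnitine carrier, went from 103 and 132 at 0w to 26.5 and 56.8 at 11w. Cpt1a, the liver form of the outer membrane enzyme, began at 18.4 and 15.4 in the 0w mice and 15.9 and 26.6 in the 2w mice, ranged from 3.24 to 16.3 over the 5w mice, and had 69.5, 8.08 and 19.99 in the 8w mice and 2.73 and 10.3 in the last 2. Its highest value was in the plate E mouse of 8w. Its 2.73 CPM in replicate 1 of 11w enters that mouse's shuttle median and rests on fewer UMIs than Cpt2 there (35).

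Cpt1b, the muscle form and the rate-controlling enzyme of the heart, could not be measured. It had 23 UMIs over the 14 mice, 0 to 0.885 CPM, and was the only member removed by the low-count filter. In the mm10 annotation (GENCODE M21), 81.4% of its exon bases lie also in Gm44502 on the same strand. How reads in such overlaps were counted is not stated. Etfb shares 58.2% of its exon bases with genes on its own strand and Acadvl 42.9% with Dvl2 on the other, so their levels are uncertain too.

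**Figure D3:**
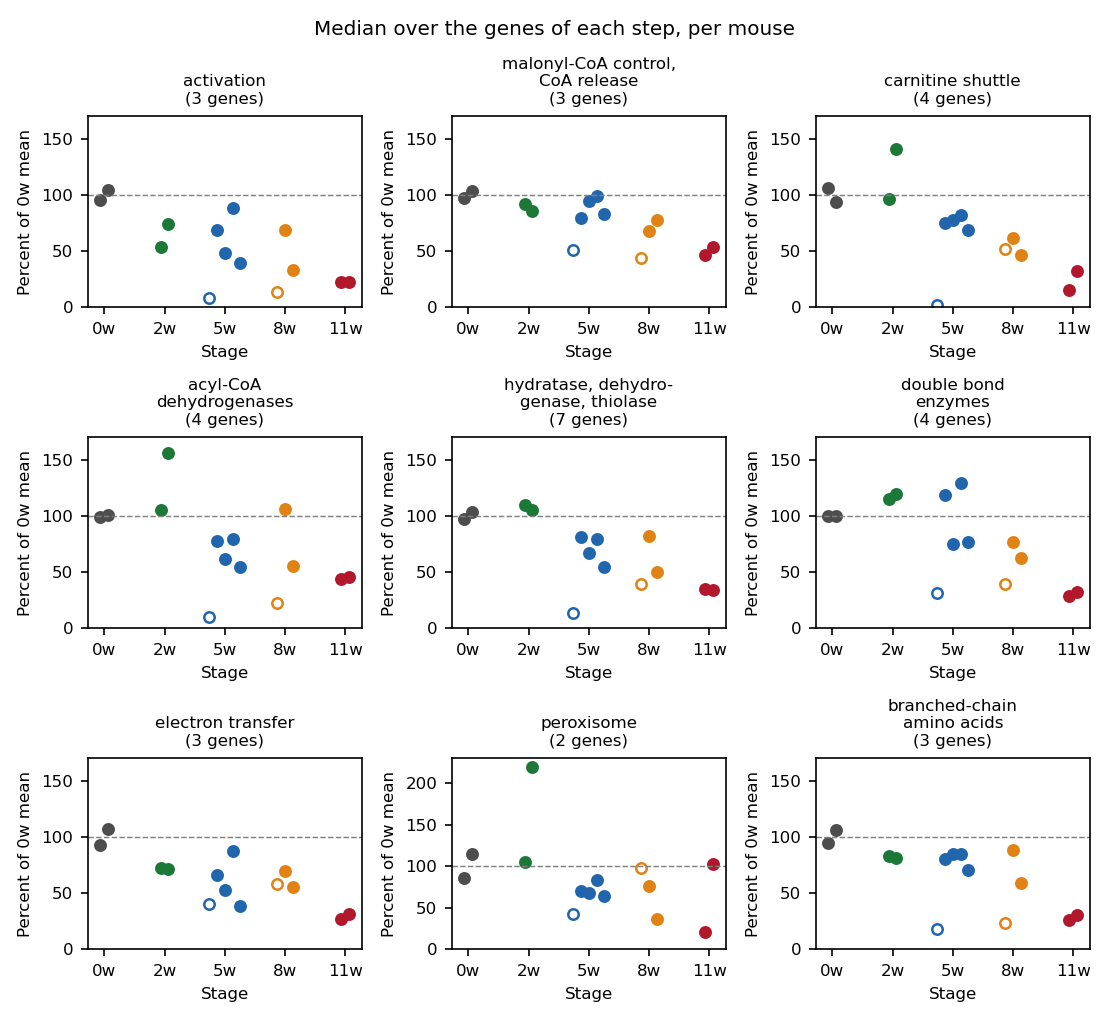
Median over the genes of each of 9 steps, as percent of the 0w mean, for each mouse by stage (scale: non-mitochondrial UMIs); open points are the mice of plate E and the dashed line is the 0w mean. Activation, electron transfer, branched-chain, and malonyl-CoA and CoA release genes are below the line in both 2w mice. In these steps Acsl1, Etfb, Acacb and Ivd have 2w means above the 0w mean. From 5w on every mouse is below the line for all steps but acyl-CoA dehydrogenases, double bond enzymes and peroxisomal genes. Double bond enzymes reach 129% in a 5w mouse before they come to 28.3% and 32.0% at 11w.

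The 4 acyl-CoA dehydrogenases, which differ in the chain length they accept, did not move as 1 block. Acadl and Acadm were lower from 2w on, as above. Acads, for short chains, was at 18.5 and 19.0 at 0w, 32.3 and 42.3 at 2w and 8.59 and 7.63 at 11w. Acadvl, for very long chains, was at 7.11 and 5.02 at 0w and at 7.03 and 8.16 at 11w, and with Acaa1a it was 1 of 2 members with no stage from which every mouse was lower. Its level rests on few UMIs and on an exon overlap.

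The trifunctional protein joins the hydratase, the long-chain hydroxyacyl-CoA dehydrogenase and the thiolase in its subunits Hadha and Hadhb. Hadha stood at 464 and 514 at 0w, 565 and 694 at 2w, 138, 397, 360, 447 and 308 at 5w, 154, 426 and 278 at 8w, and 173 and 248 at 11w. Hadhb moved beside it, at 223 and 276, then 273 and 342, then 32.4, 168, 141, 197 and 126, then 87.6, 233 and 135, and at last 85.9 and 79.5. Only replicate 2 of 8w kept Hadhb from being lower in every mouse from 5w on. Hsd17b10, a short-chain hydroxyacyl-CoA dehydrogenase that also works in mitochondrial RNA processing, differed least of the genes of this step at 11w, with 207 and 182 at 0w and 166 and 111 at 11w.

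Of the remaining genes, Eci1, the main enoyl-CoA isomerase, stood at 244 and 283 at 0w, 260 and 274 at 2w, 114, 222, 137, 237 and 151 at 5w, 104, 194 and 128 at 8w, and 59.7 and 92.1 at 11w. Etfb, the beta subunit of the flavoprotein, did not follow Etfa early on. It was at 890 and 1026 at 0w, 1228 and 1181 at 2w, 557, 1139, 992, 840 and 602 at 5w, 613, 799 and 527 at 8w, and 253 and 421 at 11w. At 5w, without plate E, Etfb was at 93.2% of the 0w mean and its partner Etfa at 43.2%. The peroxisomal genes Hsd17b4 and Acaa1a were at 46.1% and 77.6% of the 0w mean at 11w, and Acaa1a differed between the 11w mice (8.59 and 50.01). Ivd and Auh, of leucine breakdown, were at 25.9% and 22.1%.

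At 8w, 24 of the 33 genes were below 0w in all 3 mice, against 15.7% of all genes, and for 11 of them 8w was the first such stage to last (6.78% of all genes): Acaa2, Acacb, Acss1, Auh, Crat, Decr1, Ech1, Echs1, Etfb, Mlycd and Slc25a20. Under TMM scaling 7 genes had 8w as that stage (4.44% of all genes). None passed edgeR's test at 8w, where 0 genes passed in all, 698 genes and 2 members had an unadjusted p under 0.05 and DESeq2 called 4 genes and 0 members. The 5 smallest p-values belonged to Etfa (-0.72 ± 0.32), Acsl1 (-1.63 ± 0.76), Eci1 (-0.89 ± 0.43), Hadh (-1.09 ± 0.56) and Acadl (-1.05 ± 0.54), each with an adjusted p of 0.977. Without plate E the count stayed at 0 members, with 1 gene that fell (0.00649%). The median over members was -0.75 with all mice and that over all genes 0.11.

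At 11w, 31 of the 33 genes lay below 0w in both mice. On this scale 49.3% of all genes did so too, and the median over all genes was -0.77, against -1.55 over the members. Under TMM scaling, which brought the median of all genes to -0.10, that of the members was -0.87 and 27 genes lay below in both mice (31.6% of all genes). The members thus stood 0.78 (log2) below the median gene on the first scale and 0.77 below it on the second. For 7 genes 11w was the first lasting stage (38.5% of all genes): Acads, Acadsb, Acot13, Acsl3, Cpt1a, Hadhb and Hsd17b10.

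With all mice no member passed edgeR's test at 11w, nor did any other gene. The unadjusted p was under 0.05 for 18 members and 2053 genes, and DESeq2 called 129 genes and 0 members. Acaa2 (log2 fold change -2.27 ± 0.45), Etfa (-1.53 ± 0.37), Eci1 (-1.79 ± 0.49), Etfb (-1.51 ± 0.43) and Echs1 (-1.56 ± 0.45) had the smallest p-values, each with an adjusted p of 0.266. Without plate E, 21 of the 33 members fell at 11w, among 1042 genes that fell (6.77%) and 67 that rose. Cpt2 fell by 2.84 ± 0.33 on the log2 scale (adjusted p = 0.00327) and Crat by 2.86 ± 0.38 (adjusted p = 0.00454). Acaa2 (-2.28 ± 0.33), Ech1 (-1.91 ± 0.30), Etfdh (-2.27 ± 0.39), Etfa (-1.53 ± 0.27), Ivd (-1.94 ± 0.34) and Acsl1 (-2.17 ± 0.39) followed, with adjusted p-values of 0.00733 to 0.00982. The others that fell were Decr1 (-1.82 ± 0.34), Acat1 (-1.85 ± 0.35), Eci1 (-1.79 ± 0.35), Hadhb (-1.59 ± 0.32), Acadm (-1.55 ± 0.33), Echs1 (-1.56 ± 0.34), Etfb (-1.51 ± 0.33), Auh (-2.19 ± 0.49), Acadl (-1.11 ± 0.26), Hadh (-1.52 ± 0.36), Hadha (-1.22 ± 0.29), Acss1 (-1.59 ± 0.44) and Acsl3, with adjusted p-values of 0.0101 to 0.0441.

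By step, these were 3 of 3 activation genes, 2 of 4 shuttle genes, 2 of 4 dehydrogenases, 6 of 7 hydratase, hydroxyacyl-CoA dehydrogenase and thiolase genes, 3 of 4 double bond enzymes, 3 of 3 electron transfer genes and 2 of 3 of the branched-chain genes. Of the malonyl-CoA and CoA release genes 0 of 3 passed, and of the peroxisomal genes 0 of 2. With TMM factors and without plate E, 3 members fell at 11w, Cpt2 (-2.18 ± 0.33, adjusted p = 0.0146), Crat (-2.22 ± 0.35, adjusted p = 0.0163) and Acaa2 (-1.60 ± 0.32, adjusted p = 0.0462), among 41 genes that fell (0.266%) and 50 that rose. Leaving out 1 more mouse gave between 2 members (without 0w replicate 2) and 24 (without 11w replicate 2).

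The contrast with the most mice set the 5 mice of 8w and 11w against the 4 of 0w and 2w. All late mice lay below all early mice for 17 of the 33 genes, against 5.23% of all genes, and for 8 under TMM scaling, against 2.61%. These 8 were Acaa2, Acadl, Acsl1, Cpt2, Crat, Decr1, Ech1 and Eci1. The members' median log2 change was -1.20, with 0 of 33 above 0, and that of all genes was -0.43. In the edgeR fit with all mice 0 members and 0 genes passed, 22 members and 2017 genes had an unadjusted p under 0.05, and DESeq2 called 175 genes and 1 member, Acaa2, 1 of 55 genes that it called lower (0.363%). The smallest edgeR p-values belonged to Acaa2 (-1.72 ± 0.30, adjusted p = 0.0939), Etfb (-1.20 ± 0.29, 0.181), Eci1 (-1.35 ± 0.33, 0.181), Echs1 (-1.16 ± 0.30, 0.188), Decr1 (-1.63 ± 0.45, 0.208), Acsl1 (-2.07 ± 0.58, 0.210), Crat (-2.34 ± 0.66, 0.210) and Etfa (-0.82 ± 0.24, 0.215).

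Without plate E, 19 members fell late against early, among 905 genes that fell (5.88%) and 73 that rose. Cpt2 (-1.99 ± 0.23, adjusted p = 0.00141), Crat (-2.19 ± 0.26, 0.00209), Acaa2 (-1.85 ± 0.23, 0.00243), Ech1 (-1.42 ± 0.21, 0.00642) and Acsl1 (-1.82 ± 0.27, 0.00690) led in edgeR. The other 14 were Decr1 (-1.42 ± 0.23), Ivd (-1.28 ± 0.23), Eci1 (-1.26 ± 0.24), Hadhb (-1.17 ± 0.22), Etfb (-1.18 ± 0.23), Hadha (-1.03 ± 0.20), Etfdh (-1.33 ± 0.27), Acadl (-0.84 ± 0.18), Acat1 (-1.12 ± 0.25), Echs1 (-1.08 ± 0.24), Etfa (-0.80 ± 0.19), Acacb (-1.27 ± 0.30), Hadh (-0.93 ± 0.25) and Auh (-1.23 ± 0.33), with adjusted p-values of 0.00881 to 0.0443. The first 5 were also the 5 that passed with TMM factors, where 35 genes fell (0.227%) and 54 rose. There Crat changed by -1.70 ± 0.24 (adjusted p = 0.00961), Cpt2 by -1.50 ± 0.22 (0.0117), Acaa2 by -1.35 ± 0.22 (0.0220), Acsl1 by -1.32 ± 0.24 (0.0318) and Ech1 by -0.92 ± 0.19 (0.0481). They span activation, the shuttle, the double bond enzymes and the last thiolase. Leaving out 5w replicate 1 alone brought the count to 11 members, and a further mouse left out with plate E gave 5 (without 8w replicate 3) to 23 (without 11w replicate 2). The 4 mice of 5w that remain share in the estimate of the spread only.

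Genes around the pathway were lower beside it in the same mice. Without plate E, late against early, 5 of 33 other fatty acid oxidation genes fell in edgeR, against 5.88% of all genes. They were led in edgeR by the thioesterases Acot7 (-1.56 ± 0.30, adjusted p = 0.0154), Acot1 (-2.91 ± 0.70, 0.0311) and Acot2 (-1.25 ± 0.35, 0.0483) and by Mut (-1.22 ± 0.31, 0.0369), a mutase of propionate breakdown. Of the uptake and storage genes 6 of 16 fell, with Plin5, which coats lipid droplets at mitochondria, at -2.07 ± 0.32 (adjusted p = 0.00738). Of the regulators and their targets 3 of 16 fell. Pdk4, which blocks glucose oxidation when fat is burned, stood at 985 and 938 CPM at 0w, 403 and 253 at 2w and 94.8 and 23.4 at 11w (-2.87 ± 0.60, adjusted p = 0.0202), and Ucp3, a mitochondrial carrier induced by fatty acids, stood at 33.2 and 25.5 CPM at 0w and at 0 and 0.263 at 11w (0 and 1 UMIs).

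Of 16 genes of ketone and glucose oxidation 9 fell, and of 16 genes of the tricarboxylic acid cycle, which takes up the acetyl-CoA, all 16 did, with Sdhb at -1.15 ± 0.16 (adjusted p = 0.00515), Mdh2 at -1.31 ± 0.19 (0.00607) and Cs at -1.49 ± 0.24 (0.00881). The list medians were -0.92, -1.05, -1.0, -0.81 and -1.24, in the order given, against -0.56 over all genes and -1.16 over the 33 members. Of the 8 cardiomyocyte markers 6 fell as well (median -1.20), while 5.88% of all genes fell. With all mice 0 genes of these lists passed. With TMM factors and without plate E, where 0.227% of all genes fell, the counts were 0, 1, 1, 0 and 1, and 1 for the markers. The lower fatty acid oxidation transcripts were thus not set apart by these counts from those of the citric acid cycle or from the cardiomyocyte markers.

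The 11 subclusters that the authors made of the cardiomyocytes were compared on the scale of protein-coding UMIs, as levels with no test. The 34 genes made up the most in CM2 (1.57%), CM1 (1.55%) and CM10 (1.53%) and the least in CM5 (0.641%) and CM7 (0.976%). The order depended on the scale. As shares of non-mitochondrial UMIs, CM2 (1.28%) was followed by CM3 (1.16%) and CM1 (1.07%). CM5 was the lowest there too (0.434%), with CM11 and CM7 both at 0.695% and CM9 at 0.715%. On the protein-coding scale CM5 was the lowest subcluster for 24 of the 33 genes. It lay below CM1 for 32 of them, with a median of 32.99% of the CM1 level. Of its 292 cells, 42.5% came from plate D, which held only mice of 2w. CM5 held 46 of the 54 cardiomyocytes of 5w replicate 1 and 67 of the 123 of 8w replicate 1, the mice of plate E. It also held 21991 CPM of the cardiomyocyte markers, against 43251 to 103393 in the other subclusters, with 86464 CPM of erythroid transcripts, a level also seen in CM11 (88619) and otherwise at 3925 to 14134. Macrophage markers came to 2485 CPM in CM5, against 70.3 to 308 in the others, and fibroblast markers to 4862, against 228 to 7643. The part of these in its low level was not tested.

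Stage and subcluster were not separate, since 93.0% of CM1 cells came from 0w, 98.1% of CM3 cells from 2w and 64.4% of CM11 cells from 11w. Single genes had their own profile. CM2, with 65.7% of its cells from 2w, was the highest for 11 genes, among them Acsl1 (1005 per 1000000 coding UMIs, against 617 in CM1 and 136 in CM5) and Crat (340, against 182 and 40.4). CM1 was the highest for 8 genes. Etfa had 1399 in CM1 and 407 to 1054 in the other subclusters, and Acadm had 1029.7 in CM1, 877 in CM2 and 511 in CM3. Acadl, also lower from 2w on, was by contrast highest in the 2w-rich CM2 (1264, against 1215 in CM1). Echs1 was highest in CM10 and CM9 (523 and 514) and lowest in CM5 and CM11 (270 and 291).

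**Figure D4:**
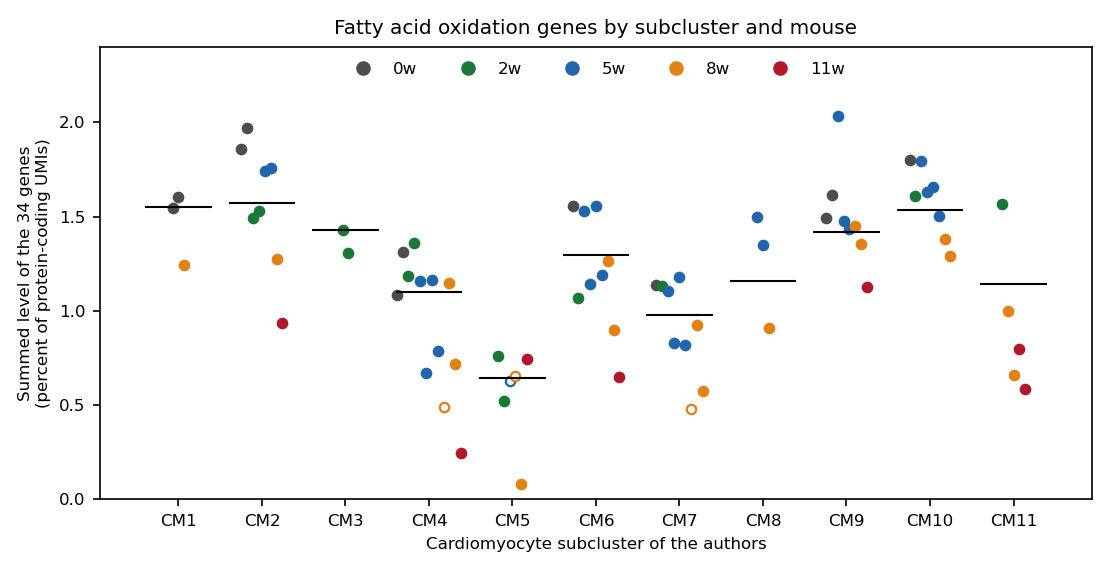
Summed level of the 34 genes, as percent of protein-coding UMIs, in each cardiomyocyte subcluster (bar: all cells of the subcluster) and in each mouse with at least 10 cells in it (points, coloured by stage; open points are mice of plate E). Within CM2 the mice run from 1.97% at 0w to 0.933% at 11w, while CM5 is low at every stage it holds.

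In most subclusters with mice of both 0w and 8w the median gene was lower at 8w, but single mice overlapped. In CM4 the sum was 1.08% and 1.31% in the 0w mice and 0.490%, 1.15% and 0.717% in the 8w mice. CM5, with no 0w mouse of at least 10 cells, had 0.758% and 0.523% at 2w, 0.654% and 0.0813% at 8w and 0.744% at 11w. In CM2 the sum was 1.86% and 1.97% in the 0w mice, 1.49% and 1.53% at 2w, 1.74% and 1.76% in the 5w mice, 1.27% in 1 mouse of 8w and 0.933% in 1 of 11w. From 0w to 8w the median over the 33 genes was 66.2% of the first level in CM1, 65.4% in CM2, 63.2% in CM4, 66.0% in CM6, 57.8% in CM7 and 75.1% in CM10. CM9 was the exception among these medians, at 99.2%, with 17 of 33 genes lower. In CM9, 42.7% of non-mitochondrial UMIs were in the pseudogene copies and Gm26924. Each of these values rests on 1 to 3 mice a side.

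In the other cell types of the ventricle most of these genes were lower than in cardiomyocytes, as a description with no test. The median level, in percent of the cardiomyocyte level, was 21.2% in fibroblasts (FB), 26.4% in endothelial cells (EC), 33.8% in macrophages (MP), 37.4% in T cells (T) and 37.7% in GN, a type whose name the labels do not explain. The cardiomyocyte markers, which those cells should lack, stood at 6.39%, 10.6%, 22.3%, 24.9% and 32.9% of the cardiomyocyte level in the same order. The members' medians and the markers thus ran in the same order over the types, and how much of a member's level in these types came from cardiomyocyte RNA was not tested. In fibroblasts Acads (6.12%), Acsl1 (6.94%) and Acacb (7.07%) were near the markers, whereas Acaa1a (83.3%), Hsd17b10 (80.0%), Auh (63.4%) and Hsd17b4 (62.5%) were far above.

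A few members were higher outside cardiomyocytes. Acsl3 was higher in all 5 other types, from 157% of the cardiomyocyte level in endothelial cells to 944% in T cells. Cpt1a, the form of the outer membrane enzyme used outside muscle, was at 147% in endothelial cells, 217% in fibroblasts, 225% in macrophages, 112% in T cells and 657% in GN. Acadvl was at 353% in T cells, Hsd17b4 at 172% in GN and Acadsb at 116% in fibroblasts. The heart's main synthetase Acsl1, by contrast, was at 6.94% to 22.7% in all 5. Granulocyte markers (6 genes, among them S100a8 and S100a9) summed to 24103 CPM in GN, against 9.85 to 28.1 in the other types, cardiomyocytes included.

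**Figure D5:**
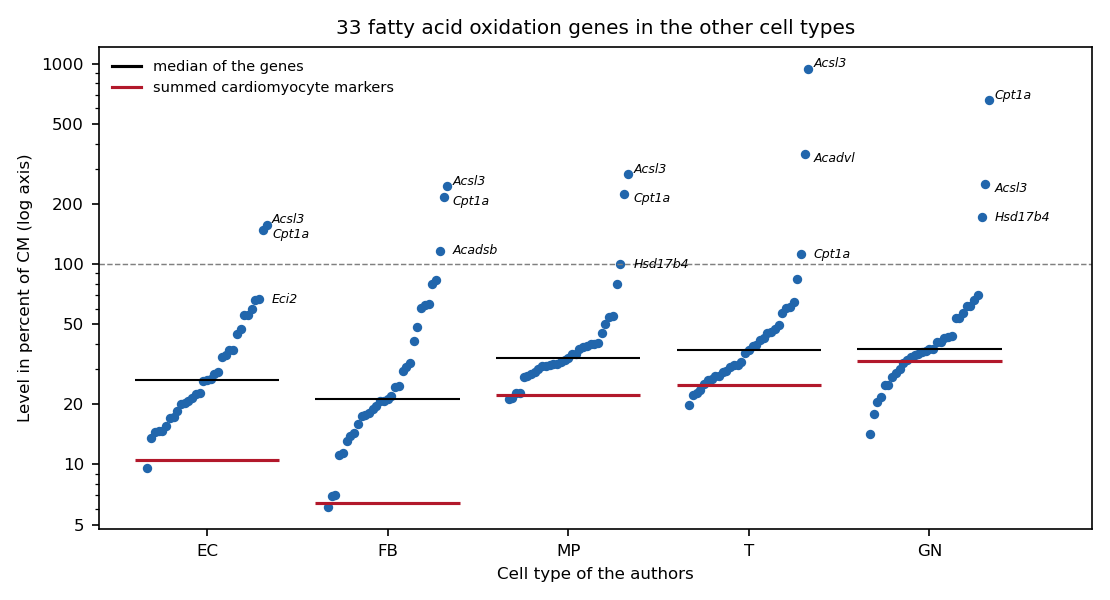
Level of each of 33 genes in the other cell types, as percent of its level in cardiomyocytes (log axis; each point is a gene, pooled over all cells of the type), with the median of the genes and the summed level of 8 cardiomyocyte markers. Acsl3 and Cpt1a lie above the 100% line in all 5 types, while the medians lie between 21.2% and 37.7%.

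Late against early, none of these genes passed in the 4 other types tested. In edgeR 0 of 33 members and 0 of 15400 genes passed in fibroblasts, 0 of 33 and 0 of 14401 in endothelial cells, 0 of 33 and 0 of 13210 in macrophages, and 0 of 32 and 0 of 11352 in T cells. At an unadjusted p under 0.05 there were 1487, 1324, 873 and 1429 genes, and DESeq2 called 250, 94, 5 and 151. The members' medians were -0.12 in fibroblasts and -0.08 in endothelial cells, against 0.09 and -0.18 over all genes, with 15 of 33 above 0 in each. The summed share of the members in fibroblasts was nevertheless lower in all 5 late mice (0.202% to 0.230%) than in all 4 early mice (0.260% to 0.312%). Cardiomyocyte markers in fibroblasts overlapped, at 2743 to 5992 CPM late and 3477 to 6255 early. In endothelial cells the shares overlapped (0.189% to 0.407% late, 0.244% to 0.277% early). These sums were not tested. In fibroblasts Ech1 was the lowest in p (-1.37 ± 0.35, adjusted p = 0.392), and DESeq2 called it as the 1 member there, where 0.617% of genes were called lower.

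In macrophages the median was -1.13 against -0.21 over all genes, and 0 of 33 members were above 0. The cardiomyocyte markers in these cells had a median change of -1.74, from 11213 to 44622 CPM in the 4 early mice to 4074 to 17097 in the 5 late mice. In T cells the members' median was -1.35 against -0.70, and the markers' median -1.31. Their part in the members' values was not tested. In endothelial cells the markers did not show that change, with 4712 to 7390 CPM in the early mice and 5566 to 26636 in the late ones.

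The change in cardiomyocytes was also tested against the mean of those in fibroblasts, endothelial cells and macrophages, with the mouse as a block because types share mice. In edgeR 0 of 33 members and 0 of 19130 genes passed, so a difference between the types was not shown. The members' median difference was -0.66, against -0.26 over all genes, with 2 of 33 above 0. Decr1 (-1.64 ± 0.60, adjusted p = 1) and Crat (-2.06 ± 0.91, adjusted p = 1) were the 2 members with an unadjusted p under 0.05, as had 768 genes.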

How the data were processed

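Per the labels, cells were profiled by polyadenylated RNA sequencing. The deposited table holds UMI counts per gene and cell, whole numbers that the authors did not normalize, for 36950 genes and 11492 cells, with the authors' cell types and subclusters. The submitters' processing notes name STAR 2.5.2b, featureCounts, Subread 1.4.6-p1 and the builds mm10 and GRCh37; strandedness and UMI collapsing are not stated. No cell filter was added, doublets were not called, 3 cells without a type were left out, and 0 cell names were shared between mice.

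Counts were summed per mouse and type (at least 10 cells), since cells are not replicates. Library size was the total without the 34 mitochondrially encoded genes, which took 56.0% of UMIs. edgeR 4.0.16 in R 4.3.3 (filterByExpr, robust glmQLFit, two-sided glmQLFTest) fitted all stages at once, with no covariate. Benjamini-Hochberg adjustment ran over all genes tested (threshold 0.05), and the SE is that of the log2 fold change. Alternatives were other scalings (TMM, RLE, protein-coding UMIs), DESeq2 1.42.0, no filter, a block, equal weight of cells (limma 3.58.1, pseudocount 1) and left-out mice or plates. The late against early fit in cardiomyocytes was also run on simulated counts. These were drawn with no difference between plates, so they cannot show how such a difference acts on the results. Genes were named with statistics if they passed in a contrast or had one of the 8 smallest p (late against early) or 5 smallest p (other CM contrasts). The genes and lists were chosen with earlier results of these data known, and genes that passed only without plate E were named after their values were seen. The authors' UMI totals per cell differed from the table's on plates G, H and K (median ratio 0.545, 0.805 and 0.481), which hold the CM of 5w replicates 4 to 7 and most of 11w.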

Additional observations from a re-analysis of the deposited data

Results flagged for a closer look

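For 7 of the 33 genes, replicate 1 of 5w stood far from the other 4 mice, past Dixon's critical value of 0.71. Chance does so in about 1 in 20 separate groups. The 33 genes were measured in the same 5 mice, so that rate cannot be set against their count. It was low for Acacb (2.16 CPM, others 26.0 to 32.7), Acadsb (27.0, others 211 to 240), Cpt2 (0, others 55.6 to 68.4), Crat (2.16, others 94.6 to 120) and Ivd (3.24, others 73.0 to 87.8). It was high for Auh (136, others 17.2 to 49.96) and Mlycd (233, others 78.9 to 100). This mouse had 54 cardiomyocytes and the lowest cardiomyocyte markers of all.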

How the results depend on the processing

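As reported, with all mice and non-mitochondrial library size, 0 members passed in any cardiomyocyte contrast, and the counts changed with plate E, the scaling, the filter and the tool. Among the single genes, 1645 values under an alternative kept their side of the threshold, 455 passed it and 0 reversed. The values below are counts past an adjusted p of 0.05, and the cause of each shift was not tested. The 2 settings with protein-coding library size were chosen after seeing the data.

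Without plate E (edgeR), members and genes that passed were 1 and 73 at 5w, 21 and 1109 at 11w and 19 and 978 late against early, with 1 gene at 8w. With TMM factors in addition they were 1 and 74, 3 and 91, and 5 and 89, with 3 genes at 8w, and with protein-coding library size instead 1 and 76, 9 and 207, and 5 and 79, with 1 gene at 2w and 2 at 8w. With all mice, the 1 gene of 5w was lost (0) with TMM factors, RLE factors, TMM factors with mitochondrial genes kept, and protein-coding library size; both TMM settings called 1 gene late against early. Without a low-count filter 9, 131, 39 and 82 genes passed at 2w, 5w, 8w and 11w and 207 late against early, with 1 member at 11w and 6 late against early. DESeq2 called 12, 82, 4 and 129 genes at these stages and 175 genes and 1 member late against early. With equal weight of cells 8 genes passed at 5w, 1 at 11w, and 31 genes and 2 members (Acaa2 and Decr1) late against early. Under TMM scaling, with and without plate E, all late mice lay below all early mice for 8 genes, and 8w was the first lasting stage for 7 and 6 genes.

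In fibroblasts 100 genes passed without a filter, and 250 genes and 1 member (Ech1) with DESeq2. In endothelial cells these counts were 69 and 94 genes. In macrophages DESeq2 called 5 genes. In T cells 13 genes passed without a filter, 151 genes and 2 members (Acsl1 and Decr1) with DESeq2, 9 with the replicate block and 7 with at least 20 cells. The comparison of cardiomyocytes with the other types called 1 gene with TMM factors. Leaving out each mouse of that comparison was not run. Without plates G, H and K no value could be had at 5w, at 11w or late against early, and the counts at 2w and 8w were 0.

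With the replicate number as a block, 28 genes passed at 5w and the members' median there was -2.64, a value that rests on replicate 1, since replicates 4 to 7 exist only at 5w. Same-numbered mice had a median correlation of 0.0352 over 16 pairs (-0.0159 to 0.209) and others -0.00676 over 59. The highest same-numbered value was that of the 2 mice of plate E. In stages with 2 mice, their deviations from the stage mean mirror each other. These values therefore cannot tell whether the numbers pair the mice. In no other contrast did the block call a member.

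Leaving out 1 mouse gave 0 to 11 members and 0 to 161 genes late against early, both highest without 5w replicate 1, which also gave the highest count at 5w (0 to 12 genes). The range was 0 to 3 genes at 11w, 0 to 1 at 8w, 0 to 4 in fibroblasts (highest without 8w replicate 1) and 0 to 20 in T cells (highest without 8w replicate 1). Medians over members ran from -0.08 to 0.27 at 2w, from -0.76 to -0.48 at 5w, from -1.18 to -0.65 at 8w, from -1.92 to -1.42 at 11w, from -1.38 to -1.14 late against early and from -2.48 to -1.08 in T cells. Without plate E and 1 more mouse, members that passed ran from 0 to 1 at 5w, 2 to 24 at 11w and 5 to 23 late against early, genes from 0 to 8 at 2w, 1 to 199 at 5w, 0 to 8 at 8w, 13 to 2076 at 11w and 53 to 2343 late against early, and medians from -0.57 to -0.38 at 5w, -0.95 to -0.41 at 8w and -1.37 to -0.94 late against early. Depth limited Cpt1b, Acsl3 and Acadvl, and the 11w values of Cpt2 and Crat, which rest on 33 to 76 UMIs a mouse. It also limited other scarce members. In 11w replicate 1, Cpt1a, Mlycd, Acads and Acaa1a had lower levels than Cpt2 and Crat and so rest on fewer UMIs.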
